A study of Homo sapiens with 4 samples.

Results

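The strongest FOXK2-bound regions that were found in both ChIP-seq libraries of OVCAR5 cells were examined. Replicate 1 held 12471 called peaks and replicate 2 held 27281, and 9343 peaks of replicate 1 overlapped a peak of replicate 2 by at least 1 bp. The regions were chosen by their peak scores: the scores were ranked in each list, each rank was divided by the length of its list, both shares were averaged, and the 300 pairs with the lowest mean were kept. These 300 regions, called members below, were 3.21% of the 9343 shared pairs and lay nearest to 291 of the 6924 genes that were nearest to any shared pair (4.20%). All chromatin came from 1 condition, namely OVCAR5, an established high-grade serous ovarian cancer line kept in standard culture medium and taken at passage 4-6. Chromatin was crosslinked, sheared and precipitated with an antibody against FOXK2. The study's methods call both FOXK2 libraries biological replicates, the labels do not say whether they came from separate cultures, and the matching input libraries were not analysed here. The study used these data to look for genes under direct control of FOXK2 in ovarian cancer cells.

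FOXK2 is a transcription factor of the forkhead family, whose winged-helix domain reads the core letters TGTTTAC or their reverse complement GTAAACA. FOXK1 and FOXK2 are known as repressors of autophagy and muscle-atrophy genes in fed cells, where they compete with FOXO factors for the same sites, and as regulators of glucose metabolism downstream of insulin and mTOR signalling. ChIP-seq measures where the factor sits on chromatin and not whether the nearest gene responds. The gene names below are the nearest transcription start sites (TSS) in the deposited annotation.

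High-ranking members with and without the forkhead heptamer are shown in turn. The following stretches of the plus strand of hg38, each centred on the midpoint of both replicate peaks, were picked from places 4 to 11 because they carry a heptamer, and capitals mark TGTTTAC or its reverse complement. WEE1, HIBADH and HBP1 were promoter regions, SQSTM1 was intronic and CCNE1 was intergenic.
WEE1 (chr11:9572856-9572916): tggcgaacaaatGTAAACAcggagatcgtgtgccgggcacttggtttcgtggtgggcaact
HIBADH (chr7:27663108-27663168): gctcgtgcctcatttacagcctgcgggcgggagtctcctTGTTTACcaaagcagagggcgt
HBP1 (chr7:107168592-107168652): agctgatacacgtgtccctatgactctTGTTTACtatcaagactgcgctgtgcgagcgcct
SQSTM1 (chr5:179819165-179819225): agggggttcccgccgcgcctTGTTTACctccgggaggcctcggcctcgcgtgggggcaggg
CCNE1 (chr19:29844444-29844504): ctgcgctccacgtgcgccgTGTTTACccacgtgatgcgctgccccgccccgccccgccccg
The middle of the heptamer lay 0 bp from the centre at HBP1, 7 bp from it at SQSTM1, 8 bp at CCNE1, 12 bp at HIBADH and 15 bp at WEE1. At TFAP4 and ETV5, not shown, it lay 24 and 29 bp from the centre. The CCNE1 stretch also carried 2 copies of the E-box cacgtg, 1 on each side of the heptamer, and the HBP1 stretch carried 1.

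The members with the most copies of the heptamer lay near PTPRJ, a receptor tyrosine phosphatase (intergenic), and DDI2, a protease (intronic), each with 3 copies, and next near LINC01817 with 2. They are shown to give the spacing and the strands of the copies, which are again in capitals on the plus strand of hg38.
PTPRJ (chr11:47924424-47924526): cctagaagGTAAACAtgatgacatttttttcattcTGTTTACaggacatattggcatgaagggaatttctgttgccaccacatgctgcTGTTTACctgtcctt
DDI2 (chr1:15620364-15620519): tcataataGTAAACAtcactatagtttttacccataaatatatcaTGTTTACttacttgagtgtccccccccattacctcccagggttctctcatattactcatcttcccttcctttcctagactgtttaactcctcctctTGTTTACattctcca
LINC01817 (chr2:150166418-150166479): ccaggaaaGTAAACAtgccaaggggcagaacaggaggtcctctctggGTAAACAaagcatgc
The copies at LINC01817 started 39 bp apart on the same strand.

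Other members had no heptamer. The first 4 below are from the best-ranked of them and are shown because they carried letters 1 base away from it, or an E-box, or neither, and ERN1, at place 223, was picked by name because the study followed it up. Capitals mark E-boxes (CACGTG) and stretches that differ from TGTTTAC by 1 base on either strand.
WIPI1 (chr17:68457800-68457880): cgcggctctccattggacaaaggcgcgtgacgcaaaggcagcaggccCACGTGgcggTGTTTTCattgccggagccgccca
H1FX (chr3:129316309-129316389): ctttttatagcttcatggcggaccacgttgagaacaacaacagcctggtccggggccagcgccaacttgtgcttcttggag
PLA2G1B (chr12:120317768-120317848): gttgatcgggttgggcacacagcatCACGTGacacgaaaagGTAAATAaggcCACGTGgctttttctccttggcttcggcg
FOXK1 (chr7:4641910-4641990): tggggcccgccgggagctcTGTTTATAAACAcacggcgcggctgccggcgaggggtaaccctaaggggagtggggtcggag
ERN1 (chr17:64082262-64082322): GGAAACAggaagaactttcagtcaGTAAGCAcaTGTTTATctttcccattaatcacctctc
Substitutions are numbered along TGTTTAC, whose 5′ T is position 1. The WIPI1 region held A6T beside an E-box, the PLA2G1B region held G2A between 2 E-boxes, and the FOXK1 region held C7T on both strands in overlapping letters. The H1FX stretch held none of these. ERN1, which encodes the endoplasmic reticulum stress sensor IRE1α, had 3 such stretches in its intronic region and no complete heptamer. The study reports a FOXK2 binding motif at this intronic site. It also reports that guiding inactive Cas9 to the motif lowered both FOXK2 binding there and ERN1 mRNA.

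The 8 best members were all promoter regions, and the first 4 places were the same in both replicates. Scores and ranks chose the members and are given as a description, and the peak score has no unit in the sources used here. The region 39 bp before the TSS of FBXO32, an F-box ubiquitin ligase subunit raised in muscle wasting, held the top score in both lists, with 188.3 in replicate 1 and 387.9 in replicate 2. NDUFAF6, an assembly factor of respiratory complex I, scored 104.9 and 224.1. WIPI1, which binds phosphoinositide at forming autophagosomes, scored 78.1 and 165.5, and WEE1, the kinase that holds CDK1 inactive, scored 77.2 and 146.5. From the next place on the order of the replicates differed: HIBADH, an enzyme of valine breakdown, was at rank 7 and 6, and HBP1, a repressor of cell cycle genes, at rank 5 and 14. HIBADH scored 60.6 and 122.5. HBP1 scored 61.1 and 104.7. ETV5, a PEA3-type ETS factor, scored 57.7 and 137.3, and was thus at rank 9 in replicate 1 and at rank 5 in replicate 2.

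Outside promoters, the best member was the region in an intron 1645 bp before the TSS nearest to it, that of SQSTM1, the autophagy receptor p62, with scores of 60.4 and 113.3. The next lay 32483 bp beyond the TSS of CCNE1, which encodes cyclin E1, with scores of 54.5 and 117.2. The places up to 30 also included promoters of TFAP4, a factor that itself binds E-boxes, of the linker histone gene H1FX, the helicase gene DHX40, the ubiquitin ligase receptor KLHDC2, the adaptor GRB7, the replication helicase subunit MCM7, the ESCRT-III component CHMP1B and the splicing factor SYF2. PCMTD1, ZNF250 and PLEKHM3 were also bound at their promoters. At place 24 the region lay at the starts of ERLEC1 and ASB3. The annotation named ERLEC1 for the peak of replicate 1, 33 bp beyond its TSS, and ASB3 for that of replicate 2, 18 bp beyond. The remaining best members were within introns nearest to JADE2 and AP5Z1, at an annotated transcript end 121 bp from the TSS of CCNDBP1, or intergenic near BAHCC1, LINC01817, CYP27C1, ARL6IP6 and UBALD1. The region named AP5Z1 lay 30587 bp before that TSS, within an intron of FOXK1.

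**Figure D1:**
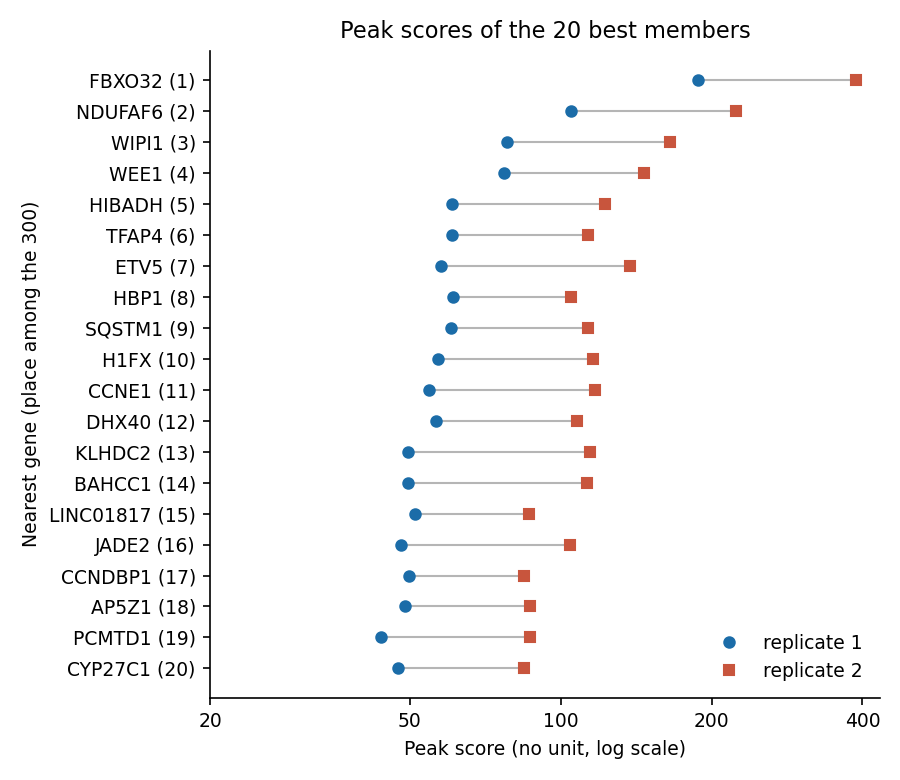
Peak scores (no unit, log axis) of the 20 best members in replicate 1 (circles) and replicate 2 (squares), 1 row per region, named by its nearest gene with its place among the 300. The replicate 2 score lies above the replicate 1 score in every row, and the FBXO32 region stands first with 188.3 and 387.9.

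Over all members the score ran from 18.3 to 188.3 in replicate 1, with a median of 25.1, and from 31.8 to 387.9 in replicate 2, with a median of 49.55. The medians of the other 9043 shared pairs were 6.41 and 11.3. Ranks of the members reached down to 358 in replicate 1 and to 469 in replicate 2, and 249 members were among the 300 best peaks of both lists. The median ratio of the replicate 2 score to the replicate 1 score was 1.95 in members and 1.72 in the other pairs. The focus ratio, the fraction of tags that lies near the peak centre, had medians of 0.866 and 0.880 in members and 0.765 and 0.783 in other pairs. Both replicates placed the centre of a member within a median of 12 bp of each other, against 30 bp in the other pairs.

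The limit of 300 cut through a continuous range of scores. Just inside it were the regions near TEX14 (19.6 and 37.8), LINC00501 (19.1 and 39.6) and TMEM45B (20 and 35.1). Just outside were those near DEPTOR (19.2 and 38.4), TIGD2 (18.9 and 39.9) and PPM1A (18.3 and 44). These 6 regions overlapped in both scores.

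**Figure D2:**
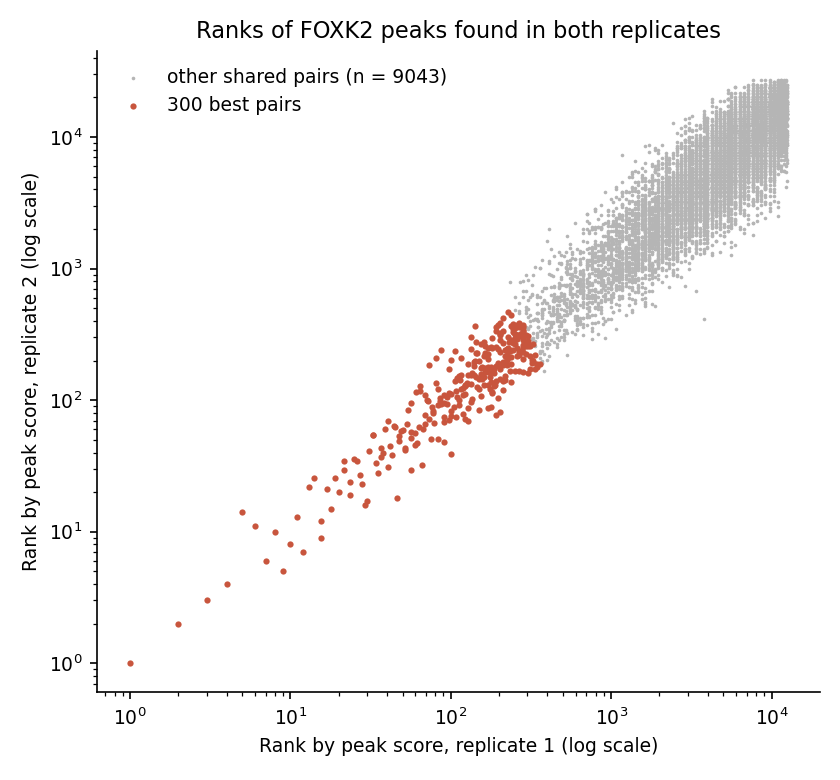
Rank by peak score in replicate 1 (x, log axis) and replicate 2 (y, log axis) of every shared pair, with the 300 members in red and the other 9043 pairs in grey; rank 1 is the highest score. The members fill the lower left corner, down to rank 358 in replicate 1 and 469 in replicate 2, and border on the other pairs without a gap.

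The forkhead heptamer was present within 100 bp of the centre in 196 of the 300 members (65.3%) and in 34.0% of the other shared pairs. The difference was 31.3 percentage points with a Newcombe 95% interval of 25.6 to 36.5, where a difference is called when its interval leaves out 0. Both strands were searched in a window of 201 bp, and windows of that length 2000 bp to each side of the members held the heptamer in 3.17%. Regions with several copies were few: 13 members (4.33%) and 1.92% of the other pairs had 2 or more, a difference of 2.41 points (0.60 to 5.36). The heptamer was found more often in members within each kind of region. It was in 54.4% of promoter members against 14.9% of the other promoter pairs, in 74.7% against 39.9% of intronic regions and in 74.6% against 41.4% of intergenic regions, and each of these differences was called. For scale, 3.42% of 35116 RefSeq promoter sequences of 300 bp held TGTTTAC.

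When a member held the heptamer, it was near the centre. Of the 196 members with a copy, 81.6% had it within 20 bp of the midpoint, against 60.7% of the other pairs with a copy, a difference of 20.9 points (14.6 to 26.0). The median distance was 10 bp in members and 16 bp in other pairs. An A followed 53.1% of the 211 copies in members and 45.8% of the copies in other pairs, and the longer form TGTTTACA was in 37.0% of members and 15.8% of other pairs.

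**Figure D3:**
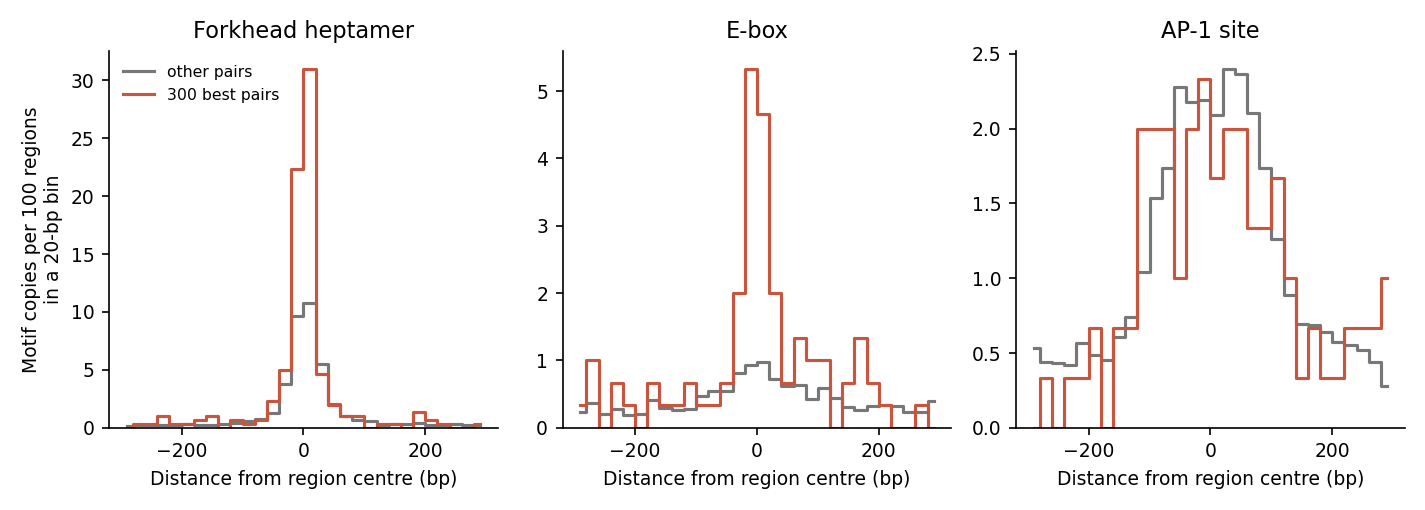
Copies per 100 regions of the forkhead heptamer, the E-box and the AP-1 site (left to right, each with its own y axis from 0) in 20-bp bins up to 300 bp on each side of the centre (x), for the members (red) and the other shared pairs (grey). The heptamer and the E-box peak at the centre and higher in the members, and the AP-1 curve of the members runs close to that of the other pairs.

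The 104 members without a heptamer held near matches close to the centre more often than the 5964 other pairs without one. Within 20 bp of the centre, 55.8% of them had at least 1 stretch that differed from TGTTTAC by 1 base, against 32.2%, a difference of 23.6 points (13.9 to 32.8). Of the 21 possible substitutions, C7T (TGTTTAT) was in 19.2% against 8.57% and A6C (TGTTTCC) in 7.69% against 2.38%, and both differences were called with intervals widened for 21 comparisons. T5G (TGTTGAC) was in 10.6% against 5.57%, and its widened interval of -1.20 to 17.6 points included 0. Examples of high rank were WIPI1 with A6T 20 bp from the centre, CCNDBP1 with T5G at 6 bp, ARL6IP6 with T5G at 14 bp, INTS1 with A6T at 12 bp and AAMDC with A6T at 9 bp. FBXO32 had C7T at 29 bp, outside this range. No other range was tried, and the replicate centres of members lay closer together than those of other pairs. Over the whole 201-bp window of all members and other pairs, C7T was in 13.3% and 13.4%, and T5G in 8.0% and 9.26%.

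The E-box CACGTG, the site of basic helix-loop-helix factors such as MYC, MAX, USF and TFE proteins, was also more common in members. It was in 48 members (16.0%) and 6.21% of other pairs, a difference of 9.79 points whose interval widened for the 21 motifs searched was 4.32 to 17.3. These letters read the same on both strands. FBXO32, WIPI1, WEE1 and HBP1 were among the members with an E-box, and CCNE1 and PLA2G1B had 2. The difference was present in each kind of region: 22.1% against 10.7% in promoters, 9.89% against 4.63% in introns and 12.7% against 4.62% between genes. Among promoters it was found with the heptamer (20.3% against 8.28%) and without it (24.2% against 11.2%). The E-box lay near the centre, with a median distance of 19 bp in members and 36 bp in other pairs. Within 30 bp of the centre it was in 18.3% of the members without a heptamer, against 3.22% of the other pairs without one, a difference of 15.05 points (8.78 to 23.6). The splits by kind of region and by heptamer were made after the overall difference had been seen.

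Of the remaining motifs, the GC box GGGCGGG, the site of SP and KLF factors, was in 28.0% of members and 11.5% of other pairs. By kind of region it was in 46.3% against 33.6% at promoters and 17.5% against 3.39% between genes, both called. In introns it was in 9.89% against 5.40%, which was not called. The cyclic AMP response element TGACGTCA (3.0% against 0.918%) and AGGGGGCGC, a part of the CTCF site (2.00% against 0.442%), were called as well, on 9 and 6 members. The AP-1 site TGACTCA, bound by FOS and JUN proteins, was in 46 members (15.3%) and in 18.4% of other pairs, and the difference of -3.05 points (-6.77 to 1.54) was not called. It was called for the best 150 pairs (-7.06 points), with replicate 2 limited to as many peaks as replicate 1 (-4.77 points) and for the 300 best pairs outside chromosomes 7, 8 and 17 (-5.09 points). The site stood in 9.62% of the members without a heptamer, against 19.4% of the other pairs without one, a difference of -9.75 points (-14.2 to -2.50). Promoters made up 59.6% of these members and 28.8% of these other pairs. With a heptamer the AP-1 values were 18.4% and 16.5%, and that difference was not called. By kind of region, the AP-1 site was in 2.21% of members and 3.71% of other pairs at promoters, in 26.4% and 22.2% in introns and in 28.6% and 24.9% between genes, none of them called. The ETS, NF-Y, NRF1, KLF GT box, TEAD, RUNX, GATA, nuclear receptor, ZNF143 and HNF1 letters, the forkhead-ETS composite and the forkhead variants C7T, A6G and T5G over all members gave intervals that included 0.

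The members lay at promoters more often than the other shared pairs. By the deposited annotation 136 members (45.3%) and 22.4% of other pairs were promoter regions, a difference of 22.97 points (17.4 to 28.7). Introns held 30.3% against 38.5%, and intergenic sequence 21.0% against 34.0%, both called lower. No member lay in a 3′ UTR, where a count of 0 allows a share of up to 1%, taken as 3 of 300. The share of other pairs there was 0.630%, and the difference (-0.816 to 0.642 points) was not called. A TSS was within 100 bp of both replicate centres in 24.3% of members and 11.3% of other pairs, and the region lay over 100000 bp from a TSS in 7.33% against 14.0%. The farthest was 393472 bp from OTOL1, at place 151 with scores of 25.8 and 45.7. The median GC content of the 201-bp window was 58.7% in members and 47.8% in other pairs, and among promoters 65.9% and 62.7%.

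Within the members, promoters thinned out from the top of the list to its limit. In steps of 50 places down the list, the promoter share was 62%, 60%, 52%, 44%, 32% and 22%, and places 251 to 300 were 40 points below places 1 to 50 (Newcombe 95% interval of the difference -55.3 to -20.8 points). The heptamer share was 70%, 66%, 58%, 60%, 60% and 78%, and its difference between the same steps (-9.15 to 24.6 points) was not called. The E-box share was 18%, 18%, 22%, 18%, 14% and 6%, and the AP-1 share 6%, 12%, 16%, 18%, 14% and 26%. Between the same steps the E-box difference (-25.4 to 1.12 points) was not called, and the AP-1 share was 20 points higher in places 251 to 300 (5.61 to 34.1). These steps were compared after the shares had been seen. For places 301 to 600 the heptamer share was 52.7%, the promoter share 34%, the E-box share 6% and the AP-1 share 15.7%.

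**Figure D4:**
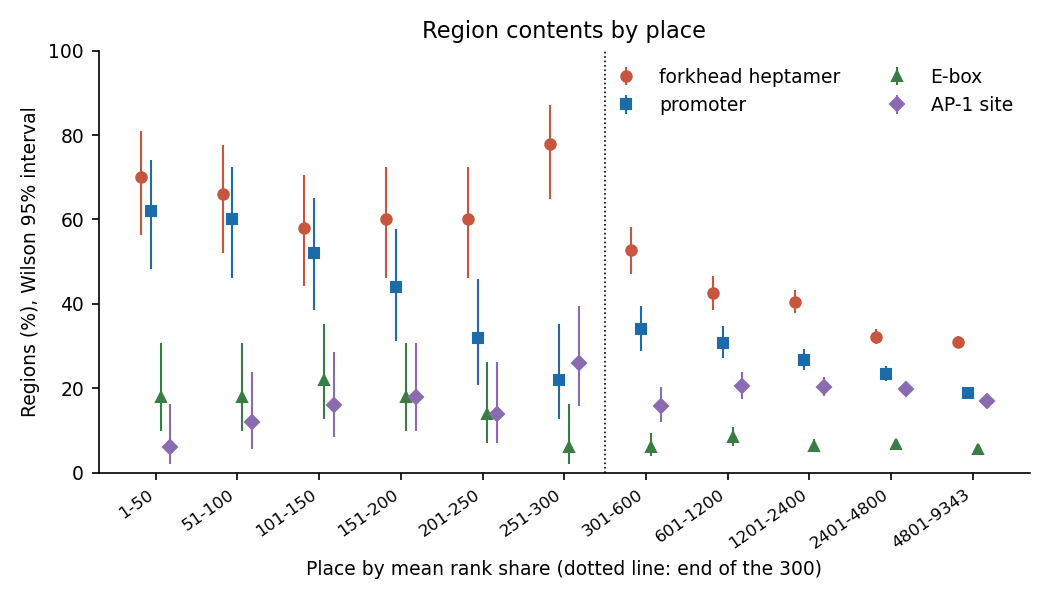
Share of regions (y, %, with Wilson 95% intervals) that held the forkhead heptamer, the E-box or the AP-1 site or were annotated as promoter, by place (x), with the end of the 300 members at the dotted line. The promoter share falls from 62% to 22% across the members, and the heptamer share stays between 58% and 78%.

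By function, the members were read through 14 gene lists, each set against the 4.20% of all genes with a shared pair that had a member. Genes were matched by the nearest TSS, so a member inside a listed gene but nearer to another TSS was not counted for it. For protein breakdown, 4 of 33 autophagy and lysosome genes had a member. These were WIPI1 and SQSTM1 above, WIPI2 (promoter, 31.3 and 59.8) and ATG2A, a lipid transfer protein of the growing autophagosome (intron, 25.3 and 52.8). Among ubiquitin ligases and F-box proteins it was 4 of 22, among them FBXO32, KLHL24 and NEDD4. The region of KLHL24, 12 bp before its TSS, scored 32.1 and 62.5, and that of NEDD4 22.8 and 40.2.

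Energy metabolism gave 6 of 21 genes. Beside NDUFAF6 and HIBADH these were the pyruvate dehydrogenase kinases PDK2 (intron, 36.4 and 68.6) and PDK4 (promoter, 24.7 and 50.3), which switch off that enzyme, its phosphatase PDP1, which switches it on (intergenic, 25.1 and 53.5), and the complex I subunit NDUFV2 (intron, 20.6 and 35.1). The PDP1 region lay 142420 bp from the TSS. Insulin, PI3K and mTOR signalling gave 2 of 26 genes, the pseudokinase TRIB1 and the mTOR brake TSC1, whose promoter scored 24.7 and 46.7. Both the heptamer and an E-box were within the TSC1 window. The member named MIR4714 by the nearest TSS, with scores of 39.6 and 81.6, lay within an intron of IGF1R. Its heptamer was 3 bp from the centre, and it is given because the study lists IGF1R as a known FOXK2 target.

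The cell cycle list had a member at 3 of 21 genes, WEE1, HBP1 and CCNE1. The unfolded protein response and endoplasmic reticulum list had 3 of 9. Of these, PPP1R15B, a subunit of the phosphatase that reverses eIF2α phosphorylation, scored 22.8 and 61.4 at 13200 bp from its TSS. HERPUD1, a component of endoplasmic reticulum-associated degradation, scored 24.0 and 53.8. ERN1, at place 223, scored 22.3 and 39.1 in an intron 47830 bp from its TSS. PPP1R15B had a heptamer, HERPUD1 an E-box, and ERN1 neither.

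Among transcription factors, 4 of 25 AP-1, KLF and immediate early genes had a member. JUNB (promoter, 33.0 and 57.6) had its heptamer 2 bp from the centre, and KLF7, FOS and ZFP36L1, an RNA-decay protein in that list, scored 20.4 to 26.4 in replicate 1 and 46.0 to 47.6 in replicate 2. Forkhead factors and FOXK partners gave 2 of 19, namely FOXK1, the paralogue of FOXK2, with scores of 39.2 and 78.8 at 40343 bp from its TSS, and FOXO3, with 24.1 and 42.4 at 1846 bp before its TSS. This FOXK1 region had no heptamer, while the FOXO3 window had 1 heptamer and 2 E-boxes. The member named AP5Z1, within an intron of FOXK1, scored 49 and 86.8 and had a heptamer 10 bp from the centre. The circadian list gave 2 of 14, the repressor NR1D2 (promoter, 27.2 and 61.1) and PER1 (intergenic, 22.6 and 40.6), both with a heptamer and an E-box.

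The remaining lists had few members. The BCL2 family gave 1 of 6 genes, the death-inducing BCL2L11 (promoter, 18.7 and 46.0). Chromatin modifiers gave 1 of 26, the H3K27 methyltransferase EZH1 (intron, 38.3 and 73.2), and TGF-beta and Wnt signalling 1 of 19, TCF7L2 (intron, 19.2 and 45.8). RNA processing gave 2 of 23, the helicase DDX5 (promoter, 24.3 and 48.2) and the Argonaute protein AGO2 (intron, 22.4 and 41.8). Stemness and lineage factors gave 0 of 7, which allows a share of up to 42.9%. Most of these lists hold under 30 genes with a shared pair, so 1 gene more or less moves a share by several points, and the lists were drawn up with earlier results of these data known.

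At 10 genes, 2 members had the same nearest gene. The pairs of regions were 643 bp apart at ZNF250, 1116 bp at TFAP4 and 1219 bp at BAHCC1, and both regions of each held the heptamer. CCNE1 had its promoter region at place 205 with scores of 25.7 and 35.2, and the stronger region at place 11 lay 32897 bp from it. TRIB1, ETV1, ABHD4, ASB9P1, SLCO4A1 and LOC100128653 were the others. The regions of ETV1, a PEA3-type ETS factor like ETV5, were 71235 bp apart and neither held the heptamer. Members as a whole were not more crowded than other pairs: another replicate 2 peak lay within 10000 bp of 28.7% of members and 28.6% of other pairs, a difference of 0.0478 points (-4.87 to 5.49).

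Some chromosomes held more members than others. Chromosome 8 had 28 members (9.33%) and 4.35% of the other pairs, a difference of 4.99 points (2.16 to 8.83). FBXO32, NDUFAF6, PCMTD1, ZNF250, TRIB1, PDP1 and AGO2 were on it. The other chromosomes were compared after that: chromosome 7 had 35 members (11.7%) against 5.33%, and chromosome 17 had 26 (8.67%) against 4.87%. With intervals widened for 25 chromosomes and contigs, those of chromosome 7 (1.69 to 13.3 points) and chromosome 8 (0.918 to 11.5) left out 0 on the higher side, that of chromosome 6 (-6.10 to -0.0530) on the lower side, and that of chromosome 17 (-0.0997 to 10.2) did not. Members were dense in the 10 Mb at the start of chromosome 7, with 10 of 50 shared pairs. On chromosome 21 there were 0 members among 111 pairs, which allows up to 2.70%. The widened interval of chromosome 21 (-1.64 to 1.87 points) included 0. On chromosome 8 members made up 9 of the 62 pairs between 120 and 130 Mb and 6 of the 30 pairs between 140 and 150 Mb. The number of copies of a chromosome segment raises its reads in ChIP and input alike, and since the input libraries were not analysed here, copy number and stronger binding cannot be told apart. Among the 300 best pairs outside chromosomes 7, 8 and 17, the heptamer difference was 28.6 points (22.9 to 34.0) and the promoter difference 21.5 points (15.9 to 27.2).

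**Figure D5:**
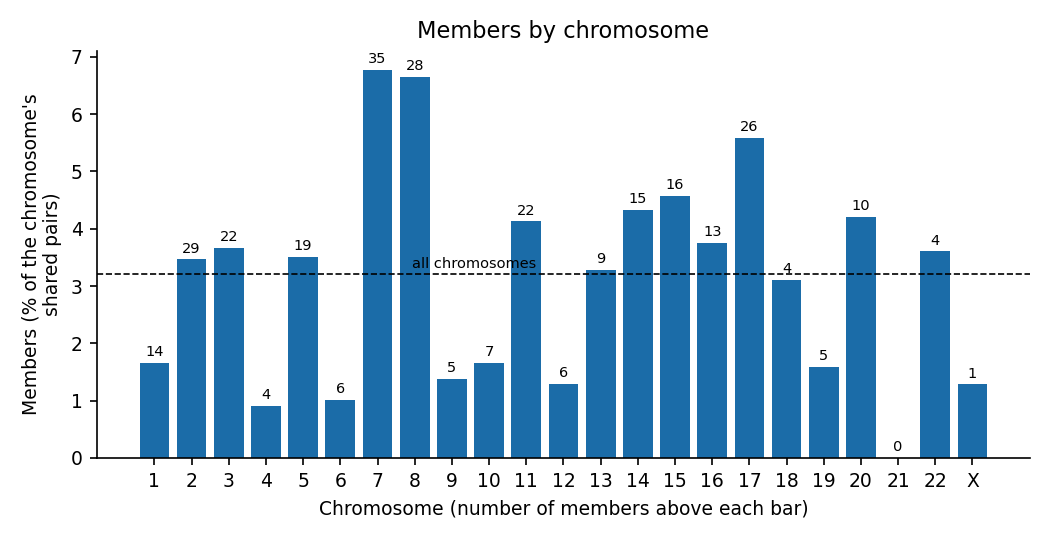
Members as a percentage of each chromosome's shared pairs (bars from 0), with the number of members above each bar and the share over all chromosomes, 3.21%, as a dashed line. Chromosomes 7, 8 and 17 stand highest with 35, 28 and 26 members, and chromosome 21 has 0 of its 111 pairs.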

How the data were processed

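Chromatin of OVCAR5 cells was sequenced by the authors as single-end reads, which were aligned to hg38 with Bowtie2 2.2.6, and peaks were called and annotated per replicate with HOMER 4.10; the calling settings and the number of reads are not given in the sources used here. The tables deposited by the authors give each peak a peak score, whose normalization is not stated, and a focus ratio, which is a fraction. Depth is therefore unknown. Only the 2 FOXK2 peak tables were used.

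Peaks were paired by at least 1 bp of overlap, with the nearest centre where several overlapped, and ties in score shared their mean rank. Sequence was read from hg38 in windows of 100 bp to each side of the midpoint of both centres, on both strands, with Python 3.11.15, pandas 2.3.3 and pysam 0.24.0. Promoters were also checked in GENCODE 44 annotation and in RefSeq promoter sequences (GRCh38.p14). Shares of members and of the other 9043 shared pairs were compared with Wilson intervals for each share and Newcombe intervals for the difference at the 95% level, widened to 99.8% for the 21 motifs and the 21 substitutions. Regions of 1 cell line are not replicates of a condition, so these intervals cover counting over regions only, and no p-value was computed. Pairing, rank shares and motif search were run on simulated data, with 0 wrong results in 2 sets of 2000 regions. The simulated peaks were far apart with the same scores in both lists, and motifs were planted in sequence of A and G only. Ties in score, competing overlaps, the final ordering step and motif matches that arise by accident were therefore not tested.

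Genes were named by rule: the 30 best members, members in the gene lists, the regions at the limit, those with the most heptamers and the best-ranked with none, the one farthest from a TSS, and genes with 2 members; a few members that met the rule are not reported here. The members, motifs and lists were chosen with earlier results of these data known.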

Additional observations from a re-analysis of the deposited data

How the results depend on the processing

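The difference between members and other pairs was recomputed under other rankings, list sizes, overlaps, windows, centres and annotations. Against other pairs, the heptamer difference was called in all 13 alternatives (14.5 points with the shorter core TGTTT to 32.6 points), that for 2 or more heptamers in all 11 (1.40 to 3.13 points), the promoter difference in all 10 (17.7 to 35.5 points), the chromosome 8 difference in all 7 (4.91 to 5.33 points) and the E-box difference in all 10 (4.78 to 13.0 points), the last without widening and chosen after the data were seen. Against the members' own flanks, a comparison of another kind, the heptamer difference was 62.2 points, that for 2 or more heptamers 4.33 points and that of the E-box 13.2 points. The AP-1 site was the exception. Its difference was called lower for the best 150 pairs (-7.06 points), with replicate 2 limited to as many peaks as replicate 1 (-4.77 points) and for the 300 best pairs outside chromosomes 7, 8 and 17 (-5.09 points, added after the data were seen), and against the members' own flanks it was higher (12.5 points), since that alternative compares members with flanking sequence and not with other pairs. Ranking by 1 replicate alone gave -4.42 to -3.73 points for the AP-1 site, neither called, and kept 266 (replicate 2 alone) and 284 (replicate 1 alone) of the 300 members. No paired analysis was possible because each FOXK2 library shares its number only with an input library, which was not analysed here. With 2 libraries and no read counts, the error of a single region's score was not estimated. Over all members, the ratio of the replicate 2 score to the replicate 1 score had quartiles of 1.79 and 2.10.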

Other observations

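The deposited annotation gives a region 1 label, and repeat labels are carried only by intronic and intergenic regions without a CpG island label. Of these, 25 of 126 members (19.8%) and 26.4% of other pairs were labelled as repeats, and the difference of -6.54 points (-12.7 to 1.35) was not called. LINE labels stood at 11.1% against 11.4%, LTR labels at 6.35% against 7.89% and SINE labels at 0.794% against 2.74%, none of them called. The DNA transposon label was on 0 of 126 members, which allows up to 2.38% (3 of 126), and on 3.55% of other pairs, a difference of -3.55 points (-4.04 to -0.562) with no widening for the 5 repeat comparisons. The nearest gene was protein-coding for 82.3% of members and 75.3% of other pairs, a difference of 7.07 points (2.27 to 11.1). Among promoter regions, protein-coding start sites on both strands lay within 1000 bp of 24.3% of members and 18.9% of other pairs, a difference of 5.32 points (-1.35 to 13.3) that was not called. A single heptamer in a promoter was on the strand of the nearest gene in 45.7% of 70 members and 52.0% of 273 other pairs (-18.9 to 6.71 points), also not called. All of these comparisons were chosen after the data were seen.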
